A study of Mus musculus with 2 samples.

Results

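The let-7 microRNAs are described here through the 9 hairpins that lie apart from the miR-125 loci: Mirlet7a-1, Mirlet7b, Mirlet7c-2, Mirlet7d, Mirlet7f-1, Mirlet7f-2, Mirlet7g, Mirlet7i and Mir98. They were taken by gene name from GENCODE M21, as let-7 family hairpins with no miR-99, miR-100 or miR-125 hairpin beside them, and are 9 of 2202 miRNA genes in the tables. Small RNA was sequenced by microRNA-seq from hearts of adult males of the strain 5xFAD/CAST, 8 to 10 months old. Both libraries, replicates 2 and 1, fall in 1 group, so the data hold no comparison between treatments or genotypes. 5xFAD is a transgenic model of brain amyloid whose transgenes are driven by the neuronal Thy1 promoter, CAST is a wild-derived inbred strain, and the labels do not say whether these animals carried the transgenes. The replicates have separate biosample entries and a single donor entry. Nothing says that they came from separate animals. Their spread, and every p-value below, may thus be technical and describes no more than how these libraries differ.

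let-7 was found in worms as a regulator of developmental timing, and in mammals its members rise as cells leave the embryonic state. A let-7 hairpin is cut by Drosha and Dicer, and the mature strand guides Argonaute to messenger RNAs that pair with its seed, the bases near its 5′ end. Known targets include Hmga2, Ras genes and Lin28, and the LIN28 proteins in turn block the processing of let-7 precursors. In heart, let-7 is abundant in adult muscle and promotes the maturation of cardiomyocytes made from human stem cells.

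The mature 5p arms are shown because they define the family and because some are held by more than 1 hairpin. They come from RefSeq on GRCm38.p6, where all 9 hairpins matched by symbol, each with a sequence equal to that in GENCODE M21. The seed, bases 2 to 8, is in capitals.
let-7g-5p: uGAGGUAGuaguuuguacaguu
let-7b-5p: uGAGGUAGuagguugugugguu
let-7i-5p: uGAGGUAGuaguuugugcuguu
let-7d-5p: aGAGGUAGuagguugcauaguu
let-7f-5p: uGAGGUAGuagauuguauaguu
miR-98-5p: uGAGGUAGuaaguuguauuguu
let-7c-5p: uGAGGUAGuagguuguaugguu
let-7a-5p: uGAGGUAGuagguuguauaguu

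All 9 hairpins carry this seed. It is found in 0.748% of the arms that RefSeq lists (13 of 1738). Besides the 9, it is listed for Mirlet7c-1, Mirlet7e, Mir7k and Mir1961. Mirlet7a-2 has only a 3p arm listed and is not among these, though its hairpin holds let-7a-5p. The other arms differ from let-7a-5p outside the seed, counted from 1 at the 5′ end. let-7f-5p differs by G12A and let-7c-5p by A19G. let-7b-5p differs by A17G and A19G, let-7g-5p by G12U and U18C, and miR-98-5p by G11A and A19U. let-7d-5p, the member that does not begin with U, differs by U1A and U16C. let-7i-5p stands farthest away, with G12U, A17G, U18C and A19U.

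The arm let-7f-5p is held by both Mirlet7f-1 and Mirlet7f-2. let-7a-5p is held by Mirlet7a-1 and by Mirlet7a-2, and let-7c-5p by Mirlet7c-2 and by Mirlet7c-1, the partners here being hairpins of the miR-125 loci. Mirlet7a-1 and Mirlet7c-2 also share their 3p arm, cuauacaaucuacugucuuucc, so neither of them has a listed mature arm of its own. Their longest common stretch is 26 nt. For the other 5 hairpins, Mirlet7b, Mirlet7d, Mirlet7g, Mirlet7i and Mir98, no other hairpin of the 2202 holds either arm, and the stretch they share with another hairpin is at most 19 nt long. Reads that aligned to several places were set apart in the deposited tables and given to no gene, so counts of the 4 hairpins with copied arms are uncertain throughout.

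The 9 hairpins lie at 5 loci of mm10. Mirlet7g (ENSMUSG00000065440.1, chr9:106178840-106178927, plus strand) lies in an intron of Wdr82, which encodes a subunit of histone methyltransferase complexes. Mirlet7i (ENSMUSG00000065406.3, chr10:122985640-122985724, minus strand) lies within the transcribed pseudogene D630033A02Rik, in an exon of 1 of the 2 transcripts that span it. Mirlet7d (ENSMUSG00000065453.1, chr13:48536012-48536114), Mirlet7f-1 (ENSMUSG00000105621.1, chr13:48537829-48537917) and Mirlet7a-1 (ENSMUSG00000065421.3, chr13:48538179-48538272) lie within 2261 bases on the minus strand, in exonic sequence of the long non-coding RNA gene 6720427I07Rik. Mirlet7c-2 (ENSMUSG00000065608.1, chr15:85706603-85706697) and Mirlet7b (ENSMUSG00000065564.1, chr15:85707319-85707403) lie 621 bases apart on the plus strand, in exonic sequence of the non-coding gene Lncppara. Mirlet7f-2 (ENSMUSG00000065602.1, chrX:151912346-151912428) and Mir98 (ENSMUSG00000065536.2, chrX:151913214-151913321) lie 785 bases apart on the plus strand, in an intron of the ubiquitin ligase gene Huwe1. Host transcripts were not measured by this assay.

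Replicate 2 had 5058613 sense counts, 35.6% of its reads, and replicate 1 had 3889280, or 35.9%. Reads that aligned to several places made 46.8% in replicate 2 and 42.3% in replicate 1. Of the marker lists, the heart muscle list (hairpins of miR-208, miR-499, miR-1 and miR-133) summed to 7481 CPM (counts relative to all sense counts of a library) in replicate 2 and 6776 CPM in replicate 1, with 0 of 7 members at 0. Nearly all of it was Mir499, with 29787 counts in replicate 2 and 10625 in replicate 1, and Mir208a, with 7513 in replicate 2 and 15109 in replicate 1. These moved in opposite directions, with log2 ratios of 1.23 and -1.27, both larger in size than that of any of the 9 hairpins between the libraries. Mir1a-2 had 222 counts in replicate 2 and 141 in replicate 1, and Mir1a-1, Mir133a-1 and Mir133a-2 had at most 18 in a library. Reads that aligned to several places are in none of these counts. How many of them came from miR-1 or miR-133 was not tested, so the low counts do not give the levels of these microRNAs. The endothelial marker Mir126a stood at 87787 and 87115 CPM. Smooth muscle markers summed to 41747 and 30137 CPM, leukocyte markers to 5000 and 6830 CPM, and erythroid markers to 1243 and 1654 CPM. Most of the leukocyte sum was Mir155, with 16244 counts in replicate 2 and 18951 in replicate 1. In the same order Mir150 had 7638 and 6503, Mir223 929 and 742, and Mir142 484 and 368. Most of the erythroid sum was Mir486, with 5190 counts in replicate 2 and 5187 in replicate 1. Mir451a and Mir144 moved in opposite directions, with log2 ratios of -0.68 and 0.81. The liver marker Mir122 stood at 27.1 and 28.8 CPM. Neuronal markers summed to 18.2 and 13.9 CPM, with 4 of 7 at 0, Mir9-2 and the 3 Mir124a hairpins. Nearly all of that sum was Mir137, with 88 counts in replicate 2 and 54 in replicate 1. Reads that aligned to several places are left out here too, and how many came from miR-9 or miR-124 was not tested. The counts of 0 thus do not give the levels of these microRNAs. In a tissue library fewer cells of a type and less RNA per cell cannot be told apart, and the part that cell types play in let-7 levels was not tested.

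The 9 hairpins took a large part of all reads given to a gene, and nearly all of it came from 4 of them. Their share of sense counts was 25.8% in replicate 2 (25.79 to 25.87, 95% by Clopper-Pearson). The share was also 25.8% in replicate 1 (25.76 to 25.85), which gives a mean of 25.8% ± 0.0168 (SD, n = 2). Mirlet7g, Mirlet7b, Mirlet7i and Mirlet7d made 95.8% of that total in replicate 2 and 96.0% in replicate 1. All 9 reached 10 counts in each library, as did 325 genes in all. The 4 leading hairpins were among the 10 most abundant genes by mean level, and 6 of the 9 were among the 50 most abundant.

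Levels are CPM of sense counts. The labels give a size range below 30 for the RNA, and the listed arms of the 9 hairpins are 21 or 22 nt long, so CPM were compared between hairpins without a further scaling by length. The arms of a hairpin were not counted apart.

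Mirlet7g, the third most abundant gene by mean level and the fourth in replicate 2, where Mir22 stood above it, averaged 71319 ± 2977 CPM (SD, n = 2). It had 73424 CPM in replicate 2 and 69214 CPM in replicate 1. Mirlet7b had 60252 CPM in replicate 2 and 63188 CPM in replicate 1, a mean of 61720 ± 2076 CPM. Mirlet7i had 63285 CPM in replicate 2 and 59906 CPM in replicate 1, a mean of 61595 ± 2389 CPM. These hairpins come from 3 loci on different chromosomes and stood within 1.16-fold of each other by their means. Mirlet7d, the leading hairpin of the chromosome 13 locus, had 50507 CPM in replicate 2 and 55389 CPM in replicate 1, a mean of 52948 ± 3452 CPM.

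The next hairpin stood 7.94-fold below Mirlet7d. Mirlet7f-2, whose 5p arm is also held by Mirlet7f-1, had 6923 CPM in replicate 2 and 6411 CPM in replicate 1, a mean of 6667 ± 362 CPM. Its neighbour Mir98 had 1703 CPM in replicate 2 and 1628 CPM in replicate 1, a mean of 1665 ± 53.2 CPM. Mir98, which has arms of its own as the 4 leading hairpins do, was 4.00-fold lower than Mirlet7f-2.

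The lowest levels were those of hairpins with copied arms. Mirlet7c-2 had 1255 CPM in replicate 2 and 1402 CPM in replicate 1, a mean of 1329 ± 103 CPM. Mirlet7a-1 had 741 CPM in replicate 2 and 716 CPM in replicate 1, a mean of 728 ± 18.1 CPM. Mirlet7f-1 came last, at 208 CPM in replicate 2 and 209 CPM in replicate 1, with 1052 and 813 counts and a mean of 208 ± 0.759 CPM.

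**Figure D1:**
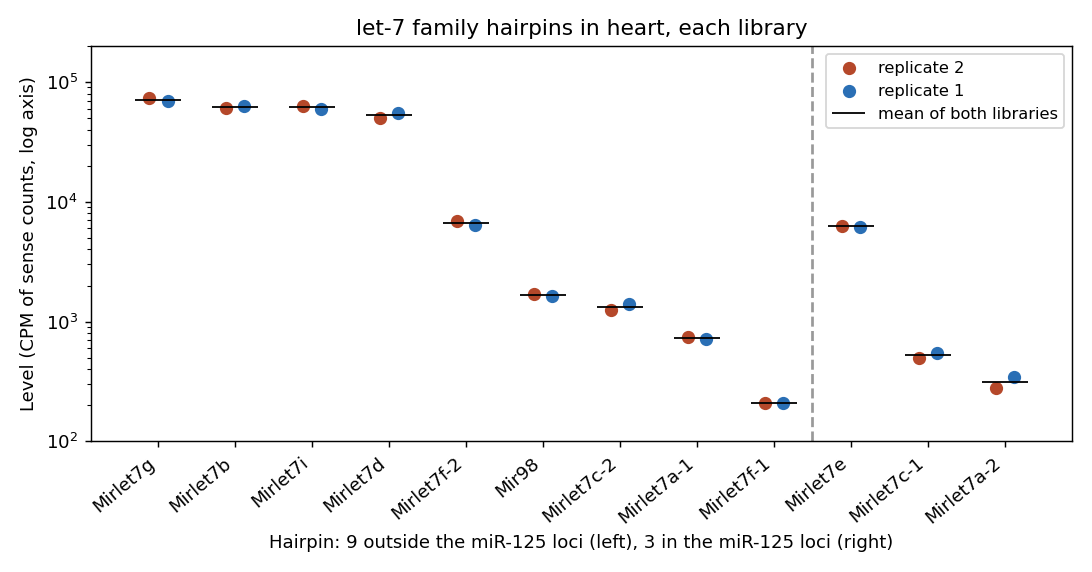
Level of each let-7 family hairpin in CPM of sense counts on a log axis, with replicate 2 and replicate 1 as points and their mean as a bar; the 9 hairpins outside the miR-125 loci are left of the dashed line and the 3 within them right of it. Mirlet7g, Mirlet7b, Mirlet7i and Mirlet7d lie between 50507 and 73424 CPM, and Mirlet7f-1 lies at 208 and 209 CPM.

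In the order of mean levels, 7 of the 8 neighbouring pairs did not overlap between the libraries. The exception was Mirlet7b and Mirlet7i, whose means differed by less than their spread. Mirlet7i was the higher of this pair in replicate 2 and Mirlet7b in replicate 1. The order itself was not tested.

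Copied and uncopied hairpins overlapped in level. The 5 hairpins with arms of their own ran from 1665 CPM (Mir98) to 71319 CPM (Mirlet7g), with a median of 61595 CPM. The 4 with a copied 5p arm ran from 208 CPM (Mirlet7f-1) to 6667 CPM (Mirlet7f-2), with a median of 1028 CPM. The first set made 96.5% of the 9 hairpins' counts in replicate 2 and 96.6% in replicate 1, a mean of 96.5% ± 0.105. Reads given to no gene because they aligned to several places outnumbered sense counts by 1.31 to 1 in replicate 2 and by 1.18 to 1 in replicate 1. The tables do not say how many of them came from let-7, so their part in the low levels of the copied hairpins was not tested.

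The 3 shared 5p arms allow hairpins with the same mature sequence to be set side by side. The stretch that begins with the arm is shown with the 6 bases that follow it on mm10, the uridines directly after the arm in capitals.
Mirlet7f-2 (chrX:151912353-151912380, plus strand): ugagguaguagauuguauaguuUUaggg
Mirlet7f-1 (chr13:48537883-48537910, minus strand): ugagguaguagauuguauaguugugggg
Mirlet7c-2 (chr15:85706616-85706643, plus strand): ugagguaguagguuguaugguuUUgggc
Mirlet7c-1 (chr16:77599672-77599699, plus strand): ugagguaguagguuguaugguuUagagu
Mirlet7a-1 (chr13:48538233-48538260, minus strand): ugagguaguagguuguauaguuUUaggg
Mirlet7a-2 (chr9:41536732-41536759, plus strand): ugagguaguagguuguauaguuUagagu

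In each pair the hairpin with more uridines after the arm had the higher count in both libraries. Mirlet7f-2, with 2 uridines, exceeded Mirlet7f-1, with 0, by 33.3 to 1 in replicate 2 (95% exact interval 31.3 to 35.4) and by 30.7 to 1 in replicate 1 (28.6 to 32.9). Mirlet7c-2, with 2, exceeded Mirlet7c-1, with 1, by 2.52 to 1 in replicate 2 (2.40 to 2.63) and by 2.55 to 1 in replicate 1 (2.42 to 2.68). Mirlet7a-1, with 2, exceeded Mirlet7a-2, with 1, by 2.66 to 1 in replicate 2 (2.50 to 2.82) and by 2.08 to 1 in replicate 1 (1.95 to 2.22). The 2 hairpins of the let-7f pair can be told apart once a read runs 1 base past the arm, and those of the other pairs once it runs 2 bases past it. Mirlet7f-1, Mirlet7f-2, Mirlet7a-2 and Mirlet7c-1 each have a 3p arm that no other hairpin holds. Arms were not counted apart, so the part of 3p reads in these counts was not tested. The run of uridines was looked up after the counts were known, in 3 pairs, and is given as a description. Intervals here cover counting error only.

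**Figure D2:**
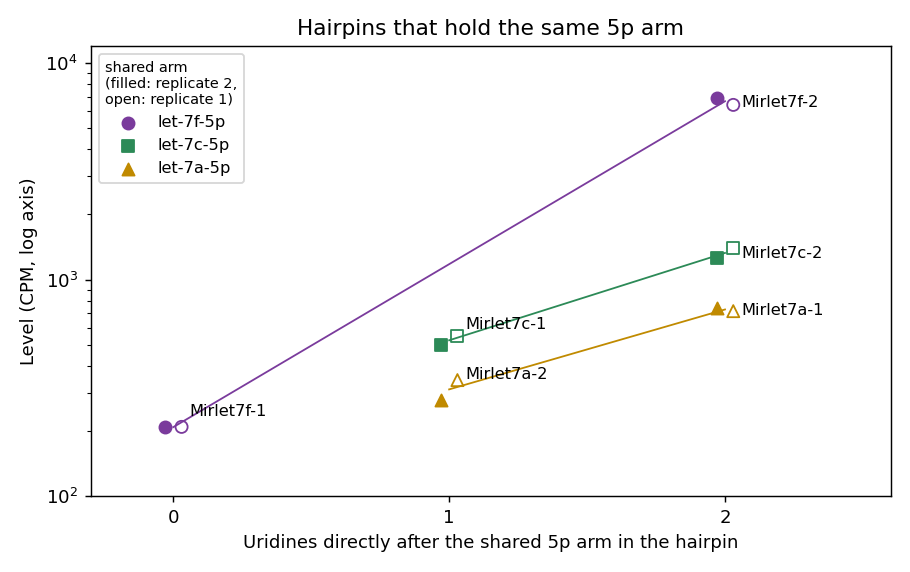
Level in CPM, on a log axis, of hairpins that hold the same mature 5p arm, against the number of uridines that directly follow the arm in the hairpin; filled points are replicate 2, open points replicate 1, and lines join the means of a pair. In the let-7f, let-7c and let-7a pairs the hairpin with 2 uridines lies above its partner in both libraries. Reads with only the shared arm fit both hairpins. Whether the counts come from reads that run past this arm or from the 3p arm was not tested.

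Between the arms lies the loop that LIN28 proteins bind. Their zinc knuckles recognise the bases GGAG, and let-7 precursors differ in whether they have them. GGAG was searched on the sense strand between the listed arms of 8 of the 9 hairpins, Mir98 left out. The bases between the arms are shown for the 4 leading hairpins and for Mirlet7c-2, with GGAG in capitals where it occurs.
Mirlet7g (chr9:106178868-106178901, plus strand): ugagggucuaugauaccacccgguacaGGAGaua
Mirlet7b (chr15:85707347-85707378, plus strand): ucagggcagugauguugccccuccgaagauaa
Mirlet7i (chr10:122985664-122985697, minus strand): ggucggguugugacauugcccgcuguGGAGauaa
Mirlet7d (chr13:48536046-48536077, minus strand): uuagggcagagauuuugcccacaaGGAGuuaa
Mirlet7c-2 (chr15:85706638-85706663, plus strand): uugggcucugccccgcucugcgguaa

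GGAG was found in 6 of the 8 hairpins searched, Mirlet7g, Mirlet7i, Mirlet7d, Mirlet7f-2, Mirlet7a-1 and Mirlet7f-1. Among the 656 hairpins with 2 listed arms that were searched, 53 held it between the arms, or 8.08%. The let-7 hairpins of the miR-125 loci, Mirlet7a-2, Mirlet7c-1 and Mirlet7e, all held it too, so it is not particular to this set. For Mirlet7a-2 the arm let-7a-5p was taken as its 5p arm. Of the 8 hairpins searched, the 6 with GGAG ran from 208 to 71319 CPM. The 2 without it were Mirlet7c-2, at 1329 CPM, and Mirlet7b, at 61720 CPM, so the levels overlapped. Both hairpins of the chromosome 15 locus lack it, and all 3 of the chromosome 13 locus have it. A match is a run of letters and not evidence of binding, and its absence says only that these letters are not in this window.

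Hairpins that lie beside each other differed widely in counts. At the chromosome 13 locus Mirlet7d exceeded Mirlet7a-1 by 68.1 to 1 in replicate 2 (95% exact interval 66.0 to 70.4) and by 77.4 to 1 in replicate 1 (74.6 to 80.4). It exceeded Mirlet7f-1 by 243 to 1 in replicate 2 (229 to 258) and by 265 to 1 in replicate 1 (247 to 284). At the chromosome 15 locus Mirlet7b exceeded Mirlet7c-2 by 48.0 to 1 in replicate 2 (46.8 to 49.2) and by 45.1 to 1 in replicate 1 (43.9 to 46.3). In the Huwe1 intron Mirlet7f-2 exceeded Mir98 by 4.07 to 1 in replicate 2 (3.97 to 4.16) and by 3.94 to 1 in replicate 1 (3.83 to 4.05). At the chromosome 13 and 15 loci the leading hairpin is the one with arms of its own, and in the Huwe1 intron it is the one with a copied 5p arm. Each ratio thus involves a hairpin with a copied arm, whose counts leave out reads that aligned to several places. The ratios hold for counted reads only.

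By locus, Mirlet7g alone gave 28.4% of the 9 hairpins' counts in replicate 2 and 26.8% in replicate 1. The chromosome 15 locus gave 23.8% in replicate 2 and 25.0% in replicate 1. Mirlet7i alone gave 24.5% in replicate 2 and 23.2% in replicate 1. The chromosome 13 locus gave 19.9% in replicate 2 and 21.8% in replicate 1, and the Huwe1 locus 3.34% in replicate 2 and 3.12% in replicate 1.

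The make-up of the set moved between the libraries by more than counting error. These shares need no scaling between libraries. The share of Mirlet7d was 19.6% in replicate 2 (19.49 to 19.62) and 21.5% in replicate 1 (21.38 to 21.54). For Mirlet7b it was 23.3% in replicate 2 (23.25 to 23.40) and 24.5% in replicate 1 (24.40 to 24.57). Mirlet7g went the other way, with 28.4% in replicate 2 (28.35 to 28.50) and 26.8% in replicate 1 (26.73 to 26.91). Mirlet7i gave 24.5% in replicate 2 (24.43 to 24.57) and 23.2% in replicate 1 (23.13 to 23.30). Between the libraries the intervals did not overlap for these 4, nor for Mirlet7f-2 and Mirlet7c-2. Those of Mirlet7a-1, Mirlet7f-1 and Mir98 did.

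**Figure D3:**
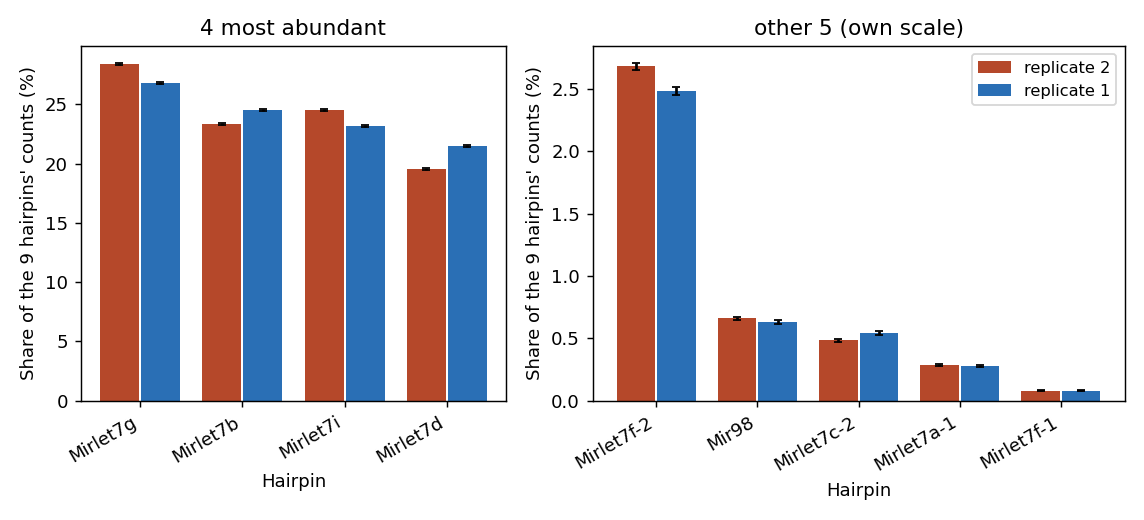
Share of the 9 hairpins' sense counts taken by each hairpin, in percent, for replicate 2 and replicate 1; error bars are 95% Clopper-Pearson intervals, and the right panel has its own scale. Mirlet7g and Mirlet7i take larger shares in replicate 2, and Mirlet7b and Mirlet7d in replicate 1.

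For a comparison over all genes, a two-sided exact binomial test per gene compared the libraries at the ratio of their TMM effective sizes. P-values were adjusted by Benjamini-Hochberg over the 412 genes with 10 or more counts in sum. Of the 9 hairpins 6 were higher in replicate 2, against a background of 22.6% of tested genes, and 1 was lower, against 22.8%. In either direction 45.4% of tested genes were called. Calls depend on depth. Of genes whose mean count was 5000 or more, 93.0% were called, 47.4% as higher and 45.6% as lower in replicate 2. Of the 7 hairpins that deep 6 were called, 5 as higher and 1 as lower. In either direction this is near the share of the deep genes, which include these 7. By direction more of the 7 were higher and fewer lower than among the deep genes. That split was not tested, and it moved with the scaling: with total-count scaling 4 of the 9 hairpins were higher and 3 lower.

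The sizes were small. The 9 log2 ratios of replicate 2 over replicate 1, with 1 CPM added, ran from -0.04 to 0.23, with a median of 0.17. Over all tested genes the median was -0.01. The median size of the ratio, sign aside, was 0.17 for the 9 hairpins, 0.39 for all tested genes and 0.26 for the deep ones. Of the 9 hairpins 0 reached 1.5-fold, against a background of 23.1% of all tested genes and 29.8% of the deep ones that were called and did. The coefficient of variation of CPM had a median of 3.88% over the 9 hairpins, 19.8% over detected genes and 16.7% over the deep genes.

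**Figure D4:**
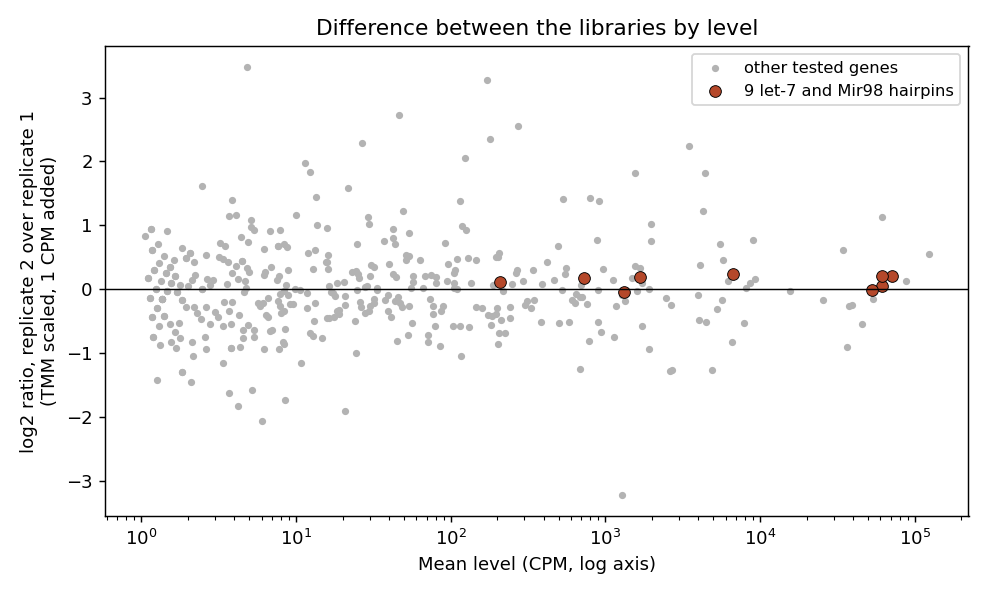
Log2 ratio of replicate 2 over replicate 1 (TMM scaled, 1 CPM added) against the mean level in CPM on a log axis, for the 412 tested genes; red points are the 9 let-7 and Mir98 hairpins and grey points the other genes. The red points lie between -0.04 and 0.23 at every level from 208 to 71319 CPM.

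Mirlet7f-2 had the largest ratio, 1.17-fold higher in replicate 2 (95% exact interval 1.16 to 1.19, adjusted p = 1.5e-83, exact binomial test). Mirlet7g was 1.15-fold higher in replicate 2 (1.15 to 1.16) and Mirlet7i 1.15-fold (1.14 to 1.16). Mir98 was 1.14-fold higher (1.10 to 1.18, adjusted p = 3.0e-14, exact binomial test) and Mirlet7a-1 1.13-fold (1.07 to 1.18, adjusted p = 6.6e-06). With total-count scaling Mirlet7a-1 was no longer called (adjusted p = 0.262).

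Mirlet7b was 1.04-fold higher in replicate 2 (1.03 to 1.04) after TMM scaling, a direction that turned with total-count scaling, where its log2 ratio was -0.07. Mirlet7d was called lower, at 0.992 of its replicate 1 level (0.986 to 0.997, adjusted p = 0.0106, exact binomial test), a call that DESeq2 size factors did not give (adjusted p = 0.682), nor the test with no low-count filter (adjusted p = 0.167), and that turned round in the column ignoring strand. Mirlet7c-2 (0.974, 0.939 to 1.01, adjusted p = 0.259) and Mirlet7f-1 (1.08, 0.986 to 1.19, adjusted p = 0.167) did not pass the exact binomial test, though with total-count scaling Mirlet7c-2 was called lower (log2 ratio -0.16, adjusted p = 1.1e-08). Total-count scaling shifted the median log2 ratio of detected genes by -0.12.

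The 3 hairpins of the miR-125 loci were lower than the 9 in sum, though not one by one: Mirlet7e stood near Mirlet7f-2 and above Mir98, and all 3 stood above Mirlet7f-1. Mirlet7e stood at 6223 CPM in replicate 2 and at 6216 CPM in replicate 1, Mirlet7c-1 at 499 and 550 CPM, and Mirlet7a-2 at 279 and 344 CPM. Summed, the 9 hairpins outnumbered these 3 by 36.9 to 1 in replicate 2 and 36.3 to 1 in replicate 1, a mean ratio of 36.6 ± 0.424. They made 97.4% of all let-7 counts in replicate 2 and 97.3% in replicate 1. Within the 3, Mirlet7e has arms of its own, while the 5p arms of the others are copied. Of the remaining hairpins with the seed or the let-7 name, Mir7j had 96 counts in replicate 2 and 87 in replicate 1, Mir7k had 1 and 1, and Mir1961 had 0 in both, which allows a level of up to 0.593 in replicate 2 and 0.771 in replicate 1, in CPM.

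The genes outside the family whose levels lay nearest were found by the distance of log2(CPM + 1) over both libraries. Nearest to Mirlet7d, Mirlet7b and Mirlet7i was Mir23b, at 48975 CPM in replicate 2 and 59091 CPM in replicate 1, with distances of 0.103, 0.314 and 0.370. For Mirlet7g it was Mir126a (0.420), for Mirlet7f-2 Mir151 (0.353) and for Mir98 Mir146 (0.104). Mirlet7c-2 was nearest to Mir30c-2 (0.0839), Mirlet7a-1 to Mir10b (0.128) and Mirlet7f-1 to Mir25 (0.135). Over 2 libraries such a likeness is one of level.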

How the data were processed

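Small RNA reads of 2 heart libraries were given as deposited tables of raw read counts per annotated miRNA hairpin, not normalized, with 1 column that ignores strand and 1 for each strand. The deposited description files name build mm10 and GENCODE M21 as annotation. Which aligner, counter and read filters made the tables is not given in the sources used here. Summary lines (4 per table) name no gene and stayed out of library sizes and tests: reads aligned to several places made 46.8% of reads in replicate 2 and 42.3% in replicate 1, unmapped reads 12.5% and 14.5%, and reads outside genes 5.15% and 7.33%. The strand column with the larger total was used as sense.

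Members and lists were chosen with earlier results of these data known. All 2202 identifiers matched GENCODE M21, whose transcript sequences gave the hairpins, and mature arms came from RefSeq (GRCm38.p6). CPM use the sense total of each library. TMM sizes came from edgeR 4.0.16 and size factors from DESeq2 1.42.0, as an alternative. The exact binomial test (scipy 1.17.1, threshold 0.05) was tested on simulated data. It compares 2 libraries and covers counting error only. With 1 group, edgeR's quasi-likelihood test could not be used. Intervals are 95% exact, and a count of 0 allows up to 3 counts. The reads have no recorded molecular identifiers, and floors, like intervals, cover counting error alone. Named were, by rule, the 9 hairpins, other let-7 and same-seed hairpins, genes within 10 kb, hosts, and the nearest other gene in level for each. The bases between the arms of Mir98 are not reported here. Other scalings, low-count minimums of 1 and 50, the column that ignores strand, no added CPM and single libraries were tried.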

Additional observations from a re-analysis of the deposited data

Results flagged for a closer look

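The opposite-strand column, which no comparison above uses, held more than the 3 counts that a count of 0 allows at 2 places near the 9 hairpins. Mirlet7b had 7 opposite-strand counts in replicate 2 and 7 in replicate 1, beside 304790 and 245754 sense counts. Gm24111, a miRNA gene annotated on the other strand, covers all of Mirlet7f-1. It had 1052 opposite-strand counts in replicate 2 and 813 in replicate 1, and 0 sense counts in both. These equal the sense counts of Mirlet7f-1 and are the same reads, listed under Gm24111 as opposite. In the column that ignores strand both genes are listed with 0 counts, and 1274429 reads of replicate 2 and 857957 of replicate 1 stand in its line for ambiguous reads, against 0 in the sense column.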

How the results depend on the processing

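Leaving out a library gave 25.81 to 25.83% for the 9 hairpins' share of sense counts, 97.3 to 97.4% for their share of let-7 counts, and 96.5 to 96.6% for the hairpins with arms of their own. The first share was 33.8% in the column that ignores strand and 9.23% of all reads in the tables, and the second was 99.7% in that column, where Mirlet7f-1 and Mirlet7e have no counts. Hairpins higher in replicate 2 numbered 4 to 7 over the 5 alternatives, against 6. Those lower numbered 3 with total-count scaling and 0 with DESeq2 size factors, with no low-count filter and in the column that ignores strand, against 1. All genes called numbered 174 to 199, against 187, and 39.7% of the calls were higher in replicate 2 with total-count scaling, against 49.7%. Log2 ratios turned with total-count scaling for Mirlet7b (-0.069) and Mirlet7f-1 (-0.0074), and in the column that ignores strand for Mirlet7d (0.036), Mirlet7c-2 (0.011) and Mirlet7c-1 (0.028). Over the 12 let-7 and Mir98 hairpins and the alternatives that gave a value, 59 log2 ratios kept direction and side of the threshold, 4 lost a call (Mirlet7d under 2 settings, and Mirlet7a-1 and Mirlet7e with total-count scaling) and 2 gained one (Mirlet7c-2 and Mirlet7c-1 with total-count scaling). The 19 levels that the column ignoring strand gave for named genes all moved by more than 1 SD. Mirlet7g had the same counts in both columns, 371423 in replicate 2 and 269191 in replicate 1. Its CPM moved because CPM in that column are relative to the column's own total, which leaves out the ambiguous reads. Mir126a lost its own counts there, with 23 in replicate 2 against 444082 sense counts. Depth limited Mirlet7f-1 most among the 9 hairpins: its lowest count was 813, and the interval of its ratio (0.986 to 1.19) was the widest. With 2 libraries the spread rests on n = 2. No paired analysis was possible because there is only 1 group.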
